A study of Mus musculus with 2 samples.

Results

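Caspases, Bcl2 family proteins, inhibitors of apoptosis and the regulators of p53 were examined in the 2 arrays of the series, which hold the epithelium and the fibers of the lens from wild type mouse embryos at embryonic stage E12.5, 1 array each. The members were taken by gene symbol, as every probe whose annotated symbol names a caspase, a Bcl2 gene, Mcl1, Bax, Bak1, Bad, Bid, Bbc3, Bmf, Apaf1, an inhibitor of apoptosis, Diablo, Dffa, Dffb, Trp53 or its Trp53inp partners, Mdm2, Mdm4 or an Aifm gene, leaving out Birc5, which is mainly a mitotic protein. This gave 43 genes with 107 probes, of 19057 named genes and 45281 probes on the array. Bax and Trp53 were not analysed here. The labels name no transgene or treatment, and the strain, the number of embryos and the way the epithelium and fibers were parted are not stated by the labels.

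Apoptosis through mitochondria is decided by the Bcl2 family. BH3-only proteins such as Bim and Puma neutralise the anti-apoptotic members, Bax and Bak then open the outer mitochondrial membrane, and released cytochrome c drives Apaf1 to activate caspase 9 and the executioner caspases. Inhibitors of apoptosis hold caspases or their activating complexes in check, and Diablo relieves that block. Lens fibers lose their nuclei and organelles late in differentiation while the cells stay in place for life, so parts of the apoptosis machinery have long been studied in this tissue as possible actors in that partial self-dismantling. At the stage sampled the primary fibers are still elongating and nucleated.

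Each value below is a normalized probe intensity, and each log2 ratio is fibers over epithelium. A gene is represented by its brightest probe. It counts as measured when it lies above the floor of at least 1 array, where the floor is the 95th percentile of 1580 probes whose 1308 genes should be off in the lens (chemosensory receptors of the nose and keratin-associated proteins of hair, called silent genes here). That put the floor at 44.6 for epithelium and 32.1 for fibers. Where a single array passed its floor, the bright value divided by the other floor gives a bound, stated as "at least". With 1 array per tissue there was no replicate, so no test could be made, and each ratio describes these arrays only. Fewer cells of a type and less RNA per cell cannot be told apart in such bulk samples.

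The labels were checked against marker lists. All 6 fiber markers on the array favoured fibers at 2-fold or more (median log2 ratio 3.31), and 4 of 5 epithelium markers were higher in epithelium by that much, with Foxe3 below both floors. Of 8 macrophage markers, only Aif1 and Csf1r were above a floor, and Adgre1, Ptprc, C1qa and C1qb were below it; the summed intensity of the list, with values below 0 set to 0, was 99.3 in epithelium and 83.7 in fibers. The periocular mesenchyme list summed to 260.0 and 64.9, with Tfap2b its single measured member of 7, and the retina list to 1258 and 143, with Sfrp2 its single measured member of 4. The pigment cell list (2 of 5 measured) summed to 162 and 108 and the surface ectoderm list (1 of 4) to 96.7 and 92.3. The endothelium list summed to 70.5 and 112, with Tek (6.92 and 83.4) its single measured member of 5. The erythroid cell list (2 of 5 measured) summed to 141 and 213, with Hbb-y at 121 and 124 and Hba-a1 at 14.8 and 76.7. The part of these cells in the results was not tested.

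Of the 43 apoptosis genes, 20 were measured (46.5%), against 33.9% of all named genes and 121 of the 1308 silent genes (9.25%). A gene with more probes has more chances to pass a floor. By probe the shares were closer, at 30 of 107 for the members (28.0%) and 8586 of 34885 for all named probes (24.6%). Of the 20 measured genes, 16 passed both floors, 3 passed that of the fibers alone (Bcl2, Bcl2l13 and Trp53inp2) and 1 that of the epithelium alone (Bcl2l1). Of all 6451 measured genes, 2986 passed both floors, 2308 that of the fibers alone and 1157 that of the epithelium alone. Among the members, a 2-fold difference was reached by 1 gene in favour of fibers, Mdm4, and by 2 in favour of epithelium, Bcl2l1 and Birc2. These are 5.0% and 10% of the measured members, while 15.5% of all 6451 measured genes favoured fibers by as much and 18.5% favoured epithelium. Under this setting the members' shares were below those of all genes in both directions. With the arrays scaled to housekeeping genes the split was 0 in favour of fibers and 15 in favour of epithelium of 18 measured, and with a loess fit it was 3 and 1 of 20. Those scalings moved the median of all measured genes as well, from 0.00 to -1.26 and 0.19. For all genes the shares in favour of fibers and of epithelium were then 1.7% and 54.0% with housekeeping scaling, and 21.9% and 13.0% with the loess fit. The members' share in favour of epithelium lay above that of all genes with housekeeping scaling (83.3%) and with the second brightest probe of each gene, where 3 of 10 members (30.0%) stood against 15.5% of all genes.

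**Figure D1:**
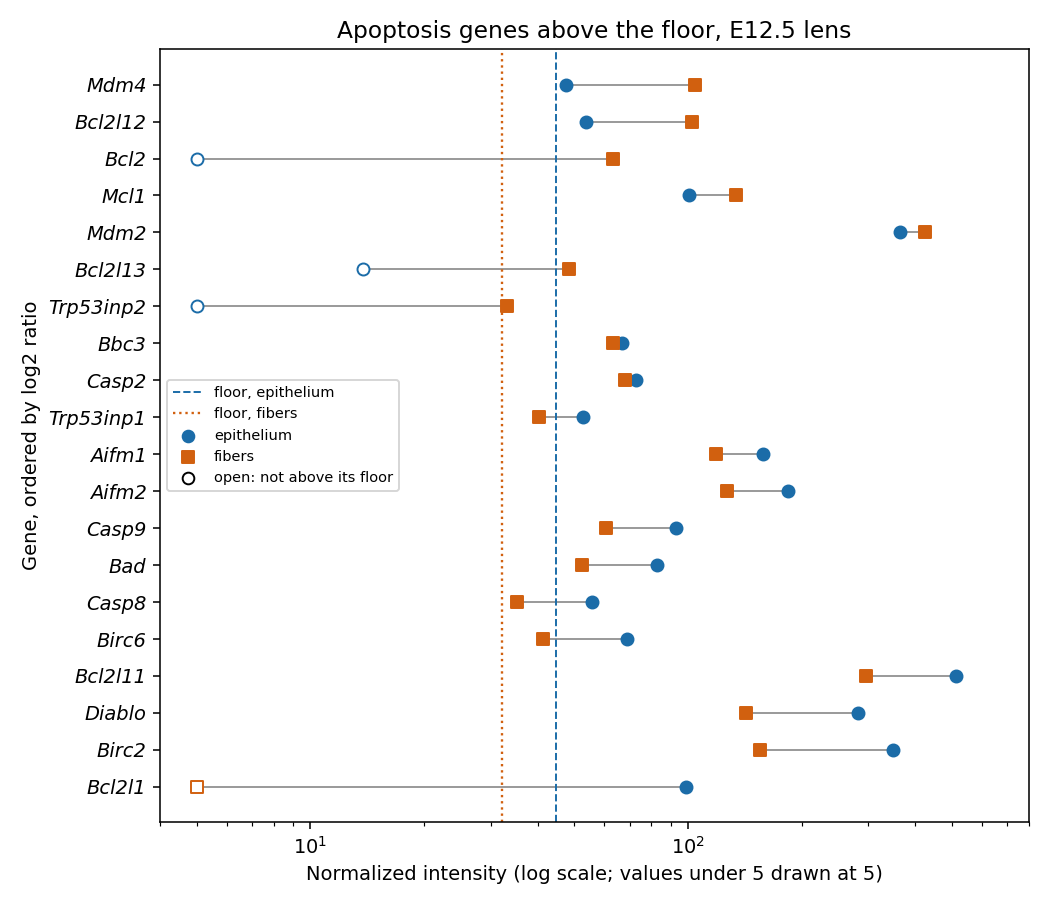
Normalized intensity (log scale) of the 20 measured apoptosis genes in epithelium (circles) and fibers (squares), ordered by log2 ratio, with the floor of each array as a vertical line and open symbols for values not above it. Most pairs lie close together, and Mdm4, Birc2 and Bcl2l1 are the genes at 2-fold or more.

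The median log2 ratio was -0.40 over the 20 measured members, against 0.00 over all measured genes, and it was 0.02 with the loess fit against 0.19 for all genes. These medians take in bounds at their value and genes with no direction at 0. Such genes were 1 of the 20 members and 773 of all 6451, so the 2 medians are not alike in make-up. The members' median was -0.11 with the second brightest probe, -0.02 with the mean of all probes and 0.00 with no floor. By role, medians of few genes were negative for BH3-only proteins (-0.66, 3 measured), mitochondrial proteins (-0.54, 3), initiator caspases (-0.62, 3) and inhibitors of apoptosis (-0.95, 2). They were positive for the anti-apoptotic Bcl2 genes (0.41, 3 measured), the other Bcl2-named genes (0.52, 2) and the p53 axis (0.11, 4). Bcl2 and Bcl2l1 entered as bounds from probes that are not borne out by the other probes of each gene, and Trp53inp2 entered at 0. Among members above both floors the median log2 ratio was -0.48, with 12 of 16 negative. All genes above both floors had a median of -0.19, with 1716 of 2986 negative. The silent-gene probes above both floors had a median of -0.49, with 29 of 32 negative. Their ratios had an SD of 0.84 and ran from -2.30 to 2.37. The median of the apoptosis genes above both floors was thus no further below 0 than that of the silent-gene probes. That comparison cannot decide whether the members' shift is more than background. The floors were set from these same silent-gene probes, and the epithelium floor was the higher. Probes lying just above both floors therefore tend to a negative ratio. The silent-gene median is no reference for members far above the floors. The silent probes reached 111 in epithelium and 80.7 in fibers at their 99th percentile, and 6 members exceeded both of these values: Aifm1, Aifm2, Bcl2l11, Birc2, Diablo and Mdm2.

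**Figure D2:**
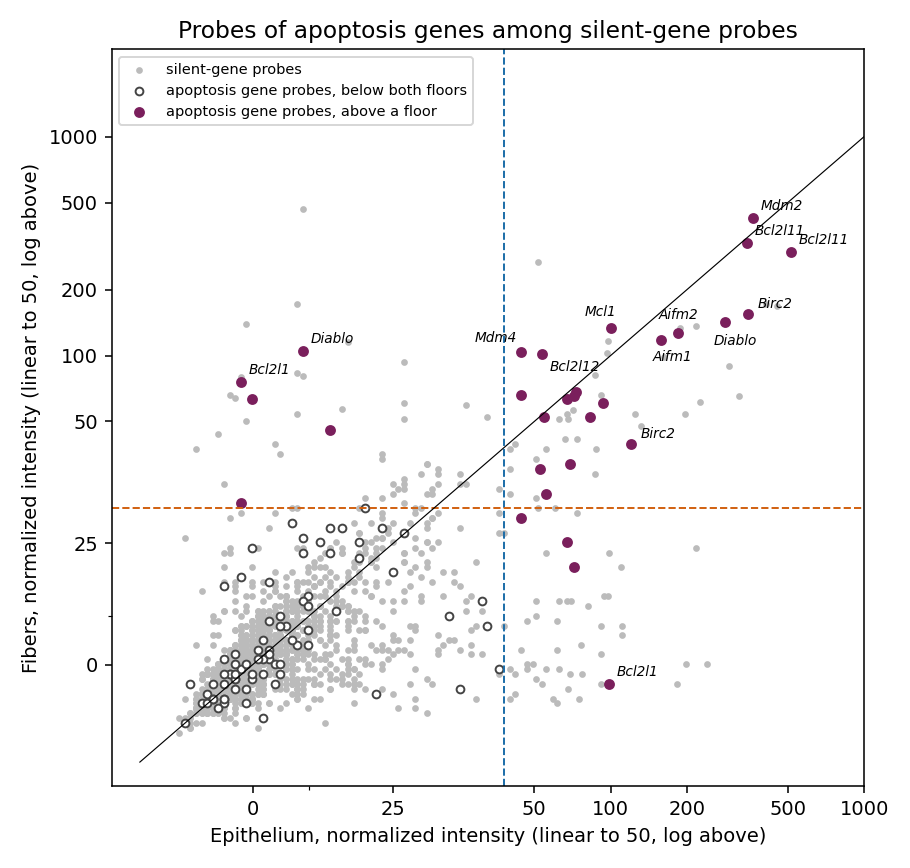
Normalized intensity in epithelium against fibers for all 107 apoptosis gene probes (filled where above a floor, open otherwise) and the 1580 silent-gene probes (gray), on axes linear to 50 and logarithmic above, with dashed floors and a line of equality. Of the 107 probes, 77 fall below both floors among the silent probes, and those of Mdm2, Bcl2l11 and Birc2 lie out at the upper right.

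Among the caspases analysed here, the initiators were measured and the others were not. Casp2, the initiator linked to the PIDDosome, read 73.0 in epithelium and 68.1 in fibers, a log2 ratio of -0.10. Its second probe read 71.8 and 65.1 (log2 ratio -0.14). The Casp2 probes thus gave nearly the same value in both tissues, with a sign that turned positive, to 0.15, under the loess fit. Casp9, the initiator activated on the apoptosome, read 93.1 and 60.5, a log2 ratio of -0.62 carried by 1 of its 4 probes, the other 3 being below both floors. Casp8, the initiator of death receptor signalling, read 55.8 and 35.2, a log2 ratio of -0.67 that stands close above the floor on each array. Both Casp8 and Casp9 kept a negative log2 ratio under every scaling tried, at -0.25 and -0.41 with the loess fit.

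Casp6, which cleaves nuclear lamins, read 4.93 in epithelium and 8.06 in fibers, below both floors. The inflammatory caspases Casp1 (-3.13 and 0.10), Casp4 (15.8 and 28.1) and Casp12 were below both floors too, as was Casp14, a caspase of keratinocyte differentiation (-0.12 and -2.87). Casp12 came closest to the line, with 43.7 in epithelium against a floor of 44.6, and read -0.88 in fibers. Casp1, Casp4 and Casp12 are consecutive protein-coding genes on chromosome 9 in the reference gene table, so the whole row of neighbours gave no signal above the floor in either tissue. Casp8ap2, a partner of caspase 8 that also acts in histone gene expression, read 3.90 and 0.10.

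The anti-apoptotic Bcl2 genes gave mixed readings. Mcl1, a short-lived guardian that binds Bim and Bak, read 101 in epithelium and 134 in fibers through its single probe. Its log2 ratio was 0.41, and -1.06 with housekeeping scaling. Bcl2, the founding member of the family, read -0.12 in epithelium and 63.3 in fibers, at least 1.42-fold higher in fibers. That signal came from 1 of 9 Bcl2 probes. The other 8 were not above the floor on either array, the nearest reading 20.0 and 32.1.

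Bcl2l1, which encodes Bcl-xL and its pro-apoptotic short form, has the largest bound of the group and also the plainest conflict. Its brightest probe read 98.8 in epithelium and -3.88 in fibers, at least 3.07-fold higher in epithelium. A second probe read -2.14 in epithelium and 75.9 in fibers, at least 1.7-fold higher in fibers. The other 2 probes were below both floors. The call for Bcl2l1 thus rests on the choice of probe and turned to 1.23 under the loess fit, where the second probe became the brightest. Which transcript forms these probes read was not examined here. Bcl2l2, the gene of Bcl-w, was below both floors with all 5 probes (13.8 and 28.1 for the brightest). The oocyte-enriched Bcl2l10 (4.93 and 10.1) and the blood cell genes Bcl2a1b, Bcl2a1c and Bcl2a1d were also below; of the last 3, the highest reading was 21.97, for Bcl2a1d in epithelium.

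Of the 5 BH3-only genes, 3 were measured, all of them on both arrays and none at 2-fold. Bcl2l11 encodes Bim, a BH3-only protein that binds every anti-apoptotic family member and that FOXO factors are known to induce when growth factor signalling falls. It read 513 in epithelium and 297 in fibers, a log2 ratio of -0.79 or 1.73-fold higher in epithelium. A second Bcl2l11 probe read 345 and 326, a log2 ratio of -0.08. These 2 probes were far above the floor in both tissues, and they differed in how much lower the fibers were. Further Bcl2l11 probes, at 1.90 and -1.85 and at -1.15 and 0.10, were below both floors. Bbc3 encodes Puma, a p53 target, and read 67.0 and 63.3 (log2 ratio -0.08), with a second probe at 54.7 and 52.2 (-0.07). As for Casp2, these Bbc3 probes gave nearly level readings, with a sign that turned to 0.20 under the loess fit. A further Bbc3 probe, at 19.0 and 25.1, was below both floors. Bad, which survival kinases inactivate by phosphorylation, read 82.6 and 52.2 through 1 probe, a log2 ratio of -0.66. Bid, the link from caspase 8 to mitochondria, read 26.9 and 27.1, and Bmf, a sensor of cell detachment, -5.08 and -6.93, all below the floors. The pore former Bak1 was below as well (-3.13 and -4.91).

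The sequence upstream of the Bcl2l11 start is shown because FOXO control of this gene is textbook knowledge. It comes from RefSeq, build GRCm38.p6, chr2:128125788-128126037, plus strand, and holds the 250 bases before 1 of the gene's 2 annotated starts, with the FOXO motif GTAAACA in capitals at -227 to -221. The window of the other start holds no FOXO motif.
Bcl2l11: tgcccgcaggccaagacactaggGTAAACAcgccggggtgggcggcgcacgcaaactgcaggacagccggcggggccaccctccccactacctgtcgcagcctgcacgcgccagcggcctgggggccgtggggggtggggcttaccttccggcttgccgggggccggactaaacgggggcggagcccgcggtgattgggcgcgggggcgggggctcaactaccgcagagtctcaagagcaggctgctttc

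Proteins that act at or leave the mitochondrion were measured in 3 of 5 cases, each with a lower reading in fibers by its brightest probe under every scaling tried. Diablo, also called Smac, which displaces inhibitors of apoptosis from caspases, read 283 in epithelium and 142 in fibers, a log2 ratio of -0.99 or 1.99-fold. Its second probe read 8.94 in epithelium and 105 in fibers, at least 2.36-fold higher in fibers. The Diablo probes therefore pointed opposite ways, as did those of Bcl2l1. Aifm1 encodes the flavoprotein AIF, needed for respiratory chain assembly, and read 158 and 118 (log2 ratio -0.41) through 1 of 3 probes. Aifm2, now known as the ferroptosis suppressor FSP1, read 184 and 127 (log2 ratio -0.54). A second Aifm2 probe, above the floor in epithelium only, was at least 2.09-fold higher there. Aifm3 (13.8 and 23.0) and Apaf1, the apoptosome scaffold (9.92 and 14.2 for the brightest of 3 probes), were below both floors.

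Both genes of the caspase-activated DNase pair, which cuts chromatin between nucleosomes, were below the floors: Dffa, the inhibitor and chaperone, read 24.9 in epithelium and 19.0 in fibers, and Dffb, the nuclease, read 8.94 and 26.1.

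Among 5 inhibitors of apoptosis, Birc2 was the clear reading. Birc2 encodes cIAP1, a ubiquitin ligase that restrains caspase 8 complexes and non-canonical NF-kappa B signalling. It read 349 in epithelium and 155 in fibers, a log2 ratio of -1.17 or 2.25-fold higher in epithelium. A second probe read 120 and 45.4, a log2 ratio of -1.41 or 2.65-fold. The other Birc2 probes, at 2.9 and 9.1 and at -8.1 and -5.9, were below both floors. Birc2 was the one member for which 2 probes above both floors each differed by 2-fold or more, and its log2 ratio was negative under all 9 alternatives, from -2.63 to -0.96. Birc6, the giant membrane-bound inhibitor BRUCE, read 68.9 and 41.3 (log2 ratio -0.74) through its RefSeq mRNA probe. Its other 3 probes, designed to other cDNAs, were below both floors, with 40.7 and 13.2 for the brightest of them. Xiap, a direct inhibitor of active caspases, was below both floors with all 4 probes (4.93 and 0.10 for the brightest). Birc7 (-5.08 and -1.85) and Birc3 (-7.06 and -3.88) were below as well. Birc3, which encodes cIAP2, is the next protein-coding gene to Birc2 on chromosome 9, so of these neighbours 1 was measured and the other was not.

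The upstream sequence of Birc2 is shown since its reading held across the 2 of its 4 probes that were above the floors. It is from RefSeq, GRCm38.p6, chr9:7837058-7837307, minus strand, the 250 bases before the more upstream of 2 annotated starts. Capitals mark a cAMP response element, TGACGTCA, at -35 to -28 and the Maf core TGCTGA at -38 to -33, which overlap by 3 bases. The window of the other Birc2 start holds neither motif.
Birc2: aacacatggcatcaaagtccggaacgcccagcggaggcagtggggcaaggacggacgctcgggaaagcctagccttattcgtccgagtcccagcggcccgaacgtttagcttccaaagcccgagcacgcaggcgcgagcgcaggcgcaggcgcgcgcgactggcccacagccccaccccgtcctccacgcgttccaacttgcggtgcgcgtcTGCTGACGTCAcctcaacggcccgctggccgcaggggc

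All 4 genes of the p53 axis on the array were measured. Mdm2, the ubiquitin ligase that degrades p53 and is itself a p53 target, read 364 in epithelium and 424 in fibers, a log2 ratio of 0.22. A second probe read 71.8 and 20.0, at least 2.24-fold higher in epithelium, and the last was below both floors. Mdm4, the relative of Mdm2 that masks the p53 activation domain, read 47.7 in epithelium and 104 in fibers, a log2 ratio of 1.13 or 2.19-fold higher in fibers. A second Mdm4 probe, also with 47.7 in epithelium, read 66.0 in fibers (log2 ratio 0.47), and the other 3 were below both floors. Both Mdm4 probes pointed to fibers, from epithelium readings just above the floor of 44.6. With housekeeping scaling Mdm4 stood at -0.33, where the median of all measured genes was -1.26. Trp53inp1, a stress-induced p53 partner that also acts in autophagy, read 52.7 and 40.3 (log2 ratio -0.39), and its second probe, above the floor in epithelium only, had a bound of -0.57. Trp53inp2, an autophagy protein, read -2.14 and 33.2, a fibers value just over its floor that gives no direction.

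The 250 bases before the annotated start of Mdm2 (chr10:117710759-117711008, minus strand) and before 1 of the 2 starts of Mdm4 (chr1:133025417-133025666, minus strand) are shown, from RefSeq, GRCm38.p6, as the related pair of proteins that restrain p53. Capitals mark in Mdm2 a match to a single 10-base unit of the p53 element, which in full has 2 such units, at -186 to -177 and the FOXO motif GTAAACA at -153 to -147, and in Mdm4 the Maf core, TGCTGA on the other strand, at -203 to -198. The p53-responsive promoter of Mdm2 known from the literature lies inside the gene and is not in this window. The window of the other Mdm4 start holds no Maf core.
Mdm2: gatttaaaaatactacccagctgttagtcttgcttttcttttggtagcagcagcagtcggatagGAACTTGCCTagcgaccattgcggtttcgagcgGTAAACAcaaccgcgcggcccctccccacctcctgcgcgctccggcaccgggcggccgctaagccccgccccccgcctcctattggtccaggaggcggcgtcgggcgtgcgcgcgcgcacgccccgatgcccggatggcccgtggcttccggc
Mdm4: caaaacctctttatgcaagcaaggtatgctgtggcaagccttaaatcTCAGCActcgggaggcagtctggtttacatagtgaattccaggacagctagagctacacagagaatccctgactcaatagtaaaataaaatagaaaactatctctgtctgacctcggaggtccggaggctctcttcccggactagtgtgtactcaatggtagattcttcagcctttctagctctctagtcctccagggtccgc

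Of the remaining Bcl2-named genes, Bcl2l12, a nuclear and cytoplasmic protein that interferes with p53 and caspases, read 53.6 in epithelium and 102 in fibers, a log2 ratio of 0.93 or 1.91-fold, and -0.53 with housekeeping scaling. Bcl2l13, a mitochondrial outer membrane protein and mitophagy receptor, read 13.8 and 48.3, at least 1.08-fold higher in fibers. Bcl2l13 adjoins Bid on chromosome 6, and Bid was below both floors. Bcl2l14 (-5.08 and 1.09) and Bcl2l15 (36.8 and -4.91) were below both floors.

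Probes of the same gene give an internal check on these readings. Of the 20 measured members, 10 had a single probe above a floor and 10 had 2. Among the latter, 3 (Bcl2l1, Diablo and Mdm2) had probes of opposite sign, while across the array 413 of 1603 genes with several probes above a floor did (25.8%). For the 5 members with both probes above both floors, the log2 ratios differed by 0.02 for Bbc3, 0.04 for Casp2, 0.24 for Birc2, 0.66 for Mdm4 and 0.71 for Bcl2l11. Over all 472 genes with several probes above both floors the median range was 0.57, and its 90th percentile was 1.90. Probes designed to RefSeq mRNAs were above a floor in 29 of 93 cases, probes designed to other cDNAs in 1 of 11, and the 3 with no accession given in 0.

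**Figure D3:**
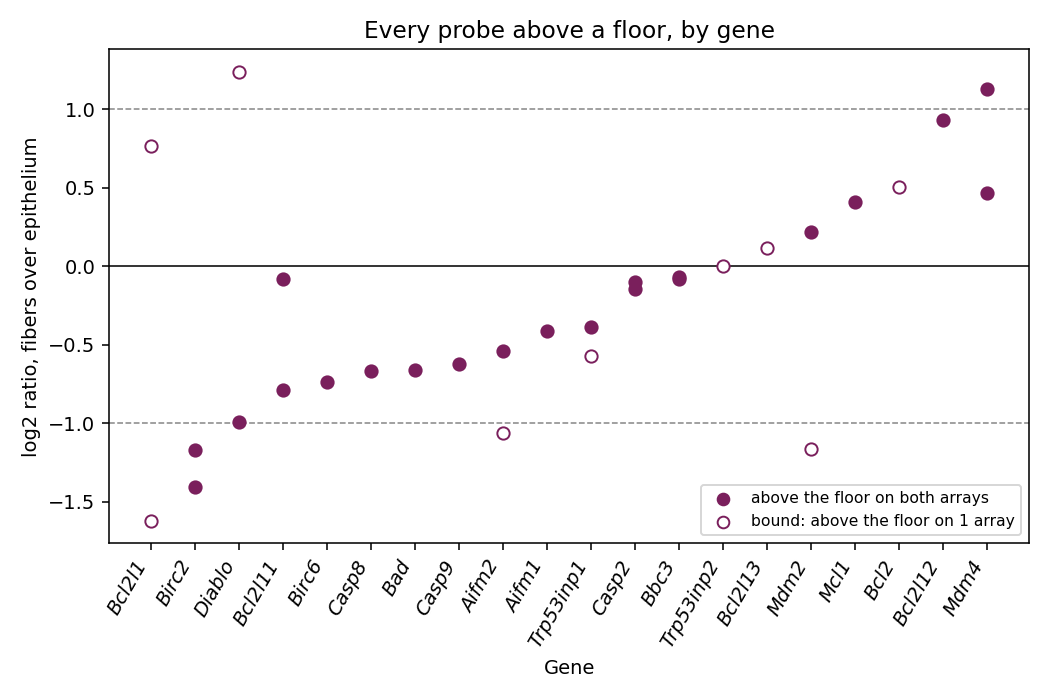
Log2 ratio, fibers over epithelium, of each of the 30 apoptosis gene probes above a floor, by gene, with filled points for probes above both floors, open points for bounds and dashed lines at 2-fold. The Birc2 pair lies below the lower line, the Casp2 and Bbc3 pairs sit near 0, and the pairs of Bcl2l1, Diablo and Mdm2 straddle 0; Trp53inp2, drawn at 0, has no direction.

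Genes of the same pathways outside the symbol rule were read from fixed lists. In death receptor signalling, 4 of 13 genes on the array were measured. Tnfrsf10b, the mouse receptor for the death ligand TRAIL, read 3389 in epithelium and 1064 in fibers, a log2 ratio of -1.67 or 3.19-fold higher in epithelium, through 1 of its 5 probes. Tnfsf10, which encodes TRAIL itself, and the adaptors Fadd and Daxx passed the fibers floor alone and had no direction. Fas, Fasl, Tnfrsf1a, Tradd and the caspase 8 inhibitor Cflar were below both floors. Tnfrsf10b was the one gene of this list at 2-fold, and it remained negative under every scaling tried, at -1.40 with the loess fit.

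Of 8 Bcl2 relatives outside the rule, 2 were measured and they pointed opposite ways. Bnip2 read 202 in epithelium and 14.2 in fibers, at least 6.27-fold higher in epithelium, and its other probes were below both floors. Bnip3l, a mitophagy receptor, read 46.6 and 168, a log2 ratio of 1.84, and 0.38 with housekeeping scaling. The BH3-only genes Pmaip1, Hrk and Bik and the Bax relative Bok were below both floors. In the mitochondrial release list, 6 of 7 genes were measured and none reached 2-fold (median log2 ratio -0.35, and -0.03 with the loess fit). With housekeeping scaling 4 of the 6 favoured epithelium at 2-fold, with a median of -1.81. Cycs, cytochrome c, read 60.5 and 48.3, with a second probe at 55.8 and 45.4 and another that passed the fibers floor alone.

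Of 14 p53 target genes, 10 were measured, and 1 reached 2-fold, in favour of fibers (median log2 ratio 0.23). With housekeeping scaling the split was 0 in favour of fibers and 3 in favour of epithelium, with a median of 0.00, and with the loess fit it was 2 and 0, with a median of 0.58. Ccng1, cyclin G1, read 38.8 in epithelium and 194 in fibers, at least 4.34-fold higher in fibers. Its log2 bound of 2.12 became 0.65 with housekeeping scaling, short of the 2-fold line. Its other 2 probes were bounds in the same direction, at least 2.89-fold and at least 1.15-fold. Cdkn1a, the p21 gene and a standard p53 readout, was below both floors (1.90 and 5.08).

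Of the 6 lists, that of caspase substrates and the lens nuclease Dnase2b had the median furthest from the 0.00 of all genes. Of its 9 genes on the array 7 were measured, and 5 of these favoured epithelium by at least 2-fold under each of the 5 scalings (median log2 ratio -1.50). The loess fit was the main check among these scalings, and the median was -1.48 under it. The share of all measured genes that favoured epithelium by 2-fold was 18.5%, ranging from 13.0% with the loess fit to 54.0% with housekeeping scaling. Lmnb1, lamin B1 of the nuclear envelope, read 323 in epithelium and 19.0 in fibers, at least 10.05-fold higher in epithelium. Lmnb2, lamin B2, read 434 and 161, a log2 ratio of -1.43. Acin1, a chromatin condensation and splicing protein, read 561 and 198, a log2 ratio of -1.50. The other probes of Lmnb1, Lmnb2 and Acin1 were below both floors. Rock1, a kinase that drives membrane blebbing once cleaved, was at least 4.54-fold higher in epithelium. Parp1, a DNA repair enzyme and classic cleavage target, read 125 and 14.2, at least 3.89-fold, with a second probe at 76.3 and 40.3 (log2 ratio -0.92). These are transcript readings, and cleavage of the proteins was not measured. Dnase2b, the lysosomal nuclease that clears fiber DNA, read 42.7 and 48.3, at least 1.08-fold higher in fibers. In the necroptosis and inflammasome list 2 of 7 genes were measured, and Pycard, the inflammasome adaptor ASC, favoured epithelium at least 2.41-fold. Its log2 bound was -0.79 under the loess fit, short of the 2-fold line, and its other probe was below both floors.

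The 250 bases upstream of each start were searched on both strands for 8 motifs, over 55 windows of 41 members and 32851 windows in all. A single 10-base unit of the p53 element, not the full element, was in the windows of 2 members, Bmf and Mdm2, against 7.13% of all windows, and the kappa B site in those of Aifm1, Bbc3, Bcl2l1 and Casp4, against 7.25%. The FOXO motif GTAAACA was in those of Bbc3, Bcl2l11, Casp4 and Mdm2, against 3.17%, and the cAMP response element TGACGTCA in those of Birc2 and Trp53inp2, against 1.55%. The Maf core TGCTGA was in those of Bcl2l2, Birc2, Diablo, Mcl1 and Mdm4, against 16.1%. The E-box CACGTG (6.02% of all windows) was found for Bbc3 and Casp1, the heat shock element GAANNTTC (6.69%) for Bad and Bcl2l15, and the E2F motif TTTCGCGC (0.256%) for Bcl2l1. Of the 4 members with the FOXO motif, Bbc3 was nearly level, Bcl2l11 was lower in fibers, Mdm2 was higher there by its brightest probe and Casp4 was below both floors. Of the 5 with the Maf core, Birc2 and Diablo were lower in fibers and Mcl1 and Mdm4 higher by their brightest probes, and Bcl2l2 was below both floors. A match is a description of these letters only.

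Across the 5 scalings, 8 of the 20 measured members changed sign: Bbc3, Bcl2l1, Bcl2l12, Casp2, Mcl1, Mdm2, Mdm4 and Trp53inp1. The 9 members Aifm1, Aifm2, Bad, Bcl2l11, Birc2, Birc6, Casp8, Casp9 and Diablo were negative under all 5. These scalings are not separate checks. The percentile scaling repeated the values as deposited, which differed little from the setting used in the text. Housekeeping scaling lowered the ratios of all 9, so it could not contradict a negative sign. The loess fit was thus the main check, and under it the 9 ran from -1.17 (Birc2) to -0.25 (Casp8).

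**Figure D4:**
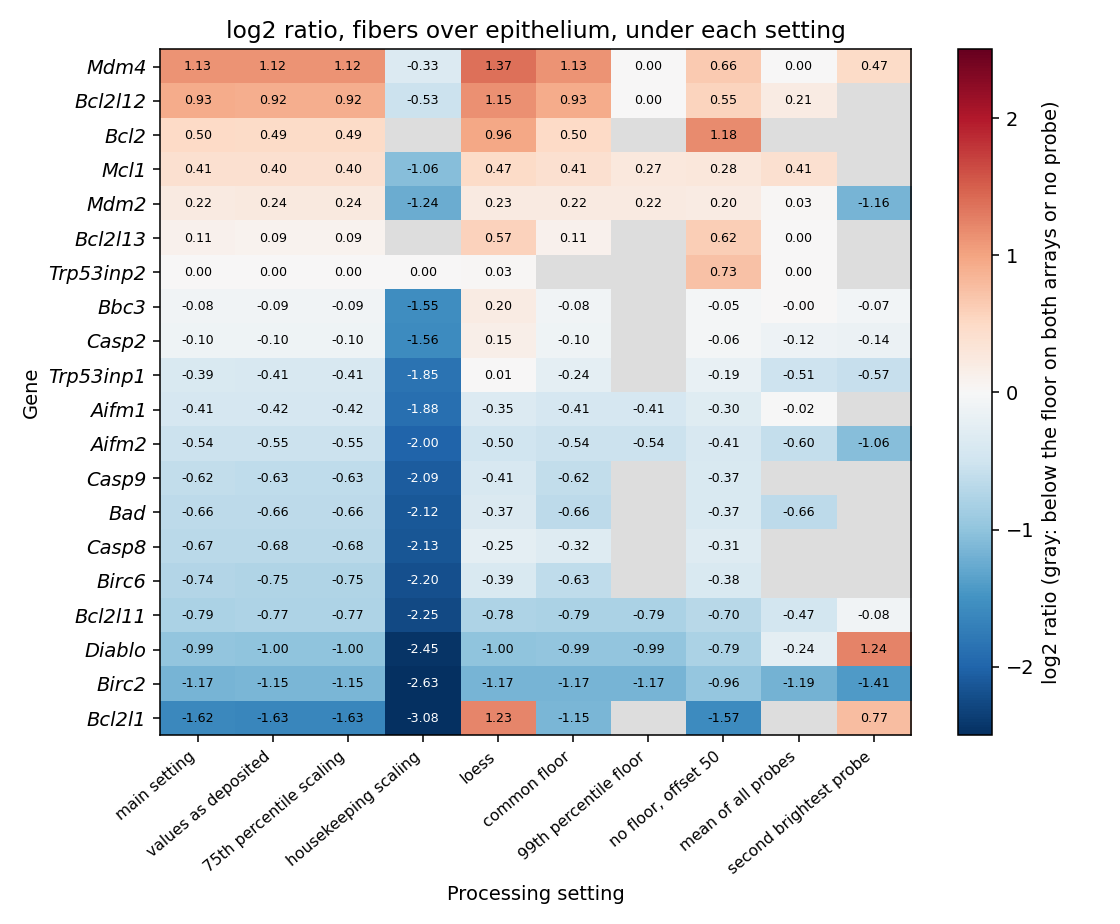
Log2 ratio, fibers over epithelium, of the 20 measured apoptosis genes (rows) under the setting used in the text and 9 alternatives (columns), from blue (higher in epithelium) to red (higher in fibers), gray where there is no value, with bounds entered at their value and genes with no direction at 0. Birc2 is blue throughout, from -2.63 to -0.96, the column with housekeeping scaling is shifted to blue as a whole, and Bcl2l1, Diablo and Mdm2 change colour with the second brightest probe.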

How the data were processed

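Total RNA of 2 lens samples was hybridised to 1-colour Illumina arrays, per the labels' protocols. The authors deposited background-subtracted intensity values, 1 for each probe on each array, unlogged (whole numbers, lowest -16, with 38.0% and 38.7% at or below 0); the background, scaling and rounding steps are not stated by the labels or file. Quantile normalization was then applied to the unlogged values, ties sharing their mean. Probes were named through the platform annotation: 34885 had 1 symbol, 18 several and 10378 none. A gene stands by the probe with the highest mean over both arrays, which favours probes that also bind other transcripts; all 43 members matched the reference gene table. Promoter windows are RefSeq's, with those of 2 members missing. Every measured member is named, and genes of the pathway lists at 2-fold or more. The members and lists were chosen with earlier results of these data known. Calling was tested on simulated data with changes placed only in genes far above both floors, so changes near the floors were not covered. In all, 9 alternatives were tried: values as deposited, 75th percentile, housekeeping and loess (span 0.4) scaling, a common floor, a 99th percentile floor, no floor with an offset of 50, the mean of all probes and the second brightest probe. The number of arrays limits the precision. Python 3.11.15, pandas 2.3.3 and statsmodels 0.14.6 were used.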

Additional observations from a re-analysis of the deposited data

How the results depend on the processing

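No paired analysis was possible because each tissue has 1 array. As the 75th percentiles of the deposited arrays were equal, that scaling gave the values as deposited. The counts of values below include both settings, so those that did not move are partly repeats. A value was taken to have moved when it differed by more than 0.84, the SD of the silent probes' log2 ratios, and a count when it differed by more than 1.5 times. Of 151 values of named members under an alternative, 127 did not move, 21 moved and 3 reversed a 2-fold call: Bcl2l1 stood at 1.23 with the loess fit and 0.77 with the second brightest probe, and Mdm4 at -0.33 with housekeeping scaling. The median of the measured members moved with housekeeping scaling only, to -1.94. Members that favoured fibers at the 2-fold line numbered 0 with housekeeping scaling, the 99th percentile floor and the mean of all probes, and 3 with the loess fit. Those higher in epithelium numbered 15 with housekeeping scaling and 1 with the loess fit, the 99th percentile floor, no floor or the mean of all probes. Measured members numbered 9 with the 99th percentile floor and 10 with the second brightest probe, where fewer genes could be tested. Over all genes, those higher in fibers and in epithelium numbered 1002 and 1196 in the text, 108 and 3438 with housekeeping scaling, 345 and 467 with the 99th percentile floor, 660 and 751 with the mean of all probes, and 219 and 250 with the second brightest probe. Apart from the smaller number of genes, the cause was not tested. The housekeeping shift rested on 11 genes, 6 of them bounds.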
